A study of Mus musculus with 24 samples.

Results

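The mitochondrial ribosomal protein genes are the nuclear genes whose symbols begin with Mrpl (large subunit) or Mrps (small subunit) followed by a number. They were taken from probe sets that carry a single gene symbol, with the probe set of the highest mean over 24 arrays standing for each gene. This gave 77 members among 19938 genes, 48 of the large and 29 of the small subunit. RNA came from 4T1 cells, a mouse mammary carcinoma line, hybridised to Affymetrix arrays with 3 arrays in each of 8 groups. The series asks which genes change over time while added lactic acid prolongs the life of cells short of glucose. Control cells were kept in 3 mM glucose with no lactic acid added, and treated cells in 3 mM glucose with 20 mM lactic acid for 1, 3, 4, 5, 7, 9 or 11 days. The labels do not say how long control cells were cultured, so lactic acid and time in culture cannot be told apart in the comparisons with control, and all of these comparisons share the same 3 control arrays. The arrays are labelled biological replicates, but no label mentions separate cultures, so a p-value here reflects only how much these arrays vary. In bulk RNA, fewer cells that express a gene and less of its RNA per cell cannot be told apart.

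Mitochondria have a ribosome of their own that translates the few proteins encoded in mitochondrial DNA, which in mammals are parts of the respiratory chain and of ATP synthase. Its small subunit binds the mRNA and reads the codons, and its large subunit joins the amino acids and guides the new chain through an exit tunnel towards the inner membrane. All its proteins are encoded in the nucleus, made in the cytosol and imported. Some have a counterpart in the bacterial ribosome and others occur only in mitochondria.

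Promoter sequences are shown for the members that fell most or rose on day 11, since they are the ends of the range described here, and for 1 pair of members that share a promoter, chosen after its values were seen. They come from RefSeq on GRCm38.p6, run 5′ to 3′ on the gene's own strand from 250 bases before to 50 bases after the annotated start, and show in capitals the matches to any of 6 motifs on either strand. The motifs were CCGGAAG (ETS factors), CGCANGCG (the core bound by NRF1), AAGATGGCG (YY1), CACGTG (E-box), GGGCGG (SP1) and CCAAT. The windows are Mrpl18 at chr17:12916042-12916341 (minus strand), Mrpl34 at chr8:71464676-71464975 (plus strand), Mrps25 at chr6:92183974-92184273 (minus strand), Mrps31 at chr8:22411090-22411389 (plus strand) and Mrps11 at chr7:78782881-78783180 (plus strand). Mrpl4, with the fourth largest fall, had no entry in the table.
Mrpl18: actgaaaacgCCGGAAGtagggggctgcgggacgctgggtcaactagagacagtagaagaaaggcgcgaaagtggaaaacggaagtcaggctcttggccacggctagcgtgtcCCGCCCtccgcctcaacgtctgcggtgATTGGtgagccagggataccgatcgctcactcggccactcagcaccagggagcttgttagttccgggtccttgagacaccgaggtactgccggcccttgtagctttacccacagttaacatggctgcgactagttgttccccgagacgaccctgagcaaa
Mrpl34: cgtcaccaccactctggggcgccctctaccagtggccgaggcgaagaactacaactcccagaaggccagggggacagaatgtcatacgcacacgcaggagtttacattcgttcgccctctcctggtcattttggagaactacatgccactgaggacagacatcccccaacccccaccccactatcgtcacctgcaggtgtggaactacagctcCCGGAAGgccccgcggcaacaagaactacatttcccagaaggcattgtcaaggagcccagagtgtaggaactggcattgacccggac
Mrps25: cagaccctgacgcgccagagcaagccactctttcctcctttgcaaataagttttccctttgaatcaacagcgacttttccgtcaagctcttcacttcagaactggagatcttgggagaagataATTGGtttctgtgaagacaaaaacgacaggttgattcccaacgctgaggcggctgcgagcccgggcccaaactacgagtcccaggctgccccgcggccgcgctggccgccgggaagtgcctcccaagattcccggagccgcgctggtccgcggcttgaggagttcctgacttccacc
Mrps31: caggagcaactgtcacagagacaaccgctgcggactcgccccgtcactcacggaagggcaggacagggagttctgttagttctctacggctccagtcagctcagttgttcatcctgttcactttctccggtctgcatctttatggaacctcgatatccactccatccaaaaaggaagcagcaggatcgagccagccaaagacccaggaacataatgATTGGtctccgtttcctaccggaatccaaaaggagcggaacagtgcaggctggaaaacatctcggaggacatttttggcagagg
Mrps11: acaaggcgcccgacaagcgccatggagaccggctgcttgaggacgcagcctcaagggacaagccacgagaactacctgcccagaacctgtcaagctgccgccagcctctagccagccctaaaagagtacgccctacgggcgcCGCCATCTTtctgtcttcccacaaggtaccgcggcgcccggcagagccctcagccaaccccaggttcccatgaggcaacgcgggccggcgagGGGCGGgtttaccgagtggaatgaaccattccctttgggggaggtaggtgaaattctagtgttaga
The Mrpl18 and Mrpl34 windows each held the ETS letters, and the Mrps11 window held the YY1 letters on the opposite strand. The windows of Mrps25 and of Mrps31, the only member called higher on day 11, held none of the ETS, NRF1, YY1 or E-box letters. Each of these 2 windows held 1 CCAAT match on the opposite strand.

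The same search was made over the promoters of all genes in that table. Of the 77 members, 68 had an entry, and 25 of them (36.8%) held the ETS letters, against 9.93% of 27025 genes. NRF1 letters were in 20 members (29.4%) and in 9.22% of all genes, and YY1 letters in 8 members (11.8%) and in 1.64%. The E-box was in 5 members (7.35%) and in 8.09% of genes, SP1 letters in 34 (50%) and in 38.2%, and CCAAT in 26 (38.2%) and in 41.1%. In 2 members an ETS match shared bases with an SP1 match, and no other matches of different motifs overlapped in members. A match describes the letters in the window and shows no binding. Among members called lower on day 3, 14 of 44 with an entry held the ETS letters and 15 held the NRF1 letters. Among those not called lower on that day the counts were 11 and 5 of 24.

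Before the results by gene, 3 arrays need naming: day 1 replicate 1 and day 9 replicates 2 and 3 had the highest array medians. Day 1 replicate 1 also had the smallest SD over genes, 1.94 log2 units, where the other arrays had 2.16 to 2.34. Mrps18c shows it: its log2 signal was 6.07 in that array and 8.87 and 8.52 in the other day 1 arrays. The day 3 arrays came near the named day 9 arrays. Their medians were 4.59, 4.62 and 4.55, against 4.64 in day 9 replicate 3 and 4.55 in control replicate 1. Their SDs over genes were 2.17, 2.16 and 2.18, against 2.17 and 2.21 in day 9 replicates 2 and 3. All day 3 arrays stay in the fit without the 3 named arrays, so that fit cannot show what this shift adds on day 3. Marker genes fitted the label in part: the keratins Krt8 and Krt18 lay between 10.12 and 11.78 in every array and the leukocyte gene Ptprc between 3.10 and 4.29. Of the other 8 leukocyte markers Cd68, a lysosomal protein of macrophages, lay between 6.51 and 7.79 and the highest value of the rest was 4.75 for Tyrobp, while Epcam, an epithelial adhesion gene, lay between 4.10 and 4.96. The rest of the epithelial list also lay below Krt8 and Krt18. Krt14 lay between 3.86 and 4.53, Cldn7 between 3.79 and 4.97, Cdh1 between 5.11 and 6.10 and Krt19 between 5.14 and 6.48. Krt7 lay between 6.63 and 8.19, Jup between 6.94 and 8.99 and Cldn4 between 4.97 and 7.81. The mean over leukocyte markers was 3.72 to 3.74 in control arrays, 3.91 to 3.97 on day 3, 3.59 to 3.82 on day 11 and 4.27 in day 1 replicate 1. The mean over fibroblast markers was 4.37 to 4.49 in control arrays, 4.80 to 5.00 on day 3 and 4.69 to 4.76 on day 11. Within it Pdgfra went from a mean of 7.28 in controls to 9.06 on day 11, while Col1a1 had 5.50 and 5.46. The part of these shifts in the results below was not tested.

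**Figure D1:**
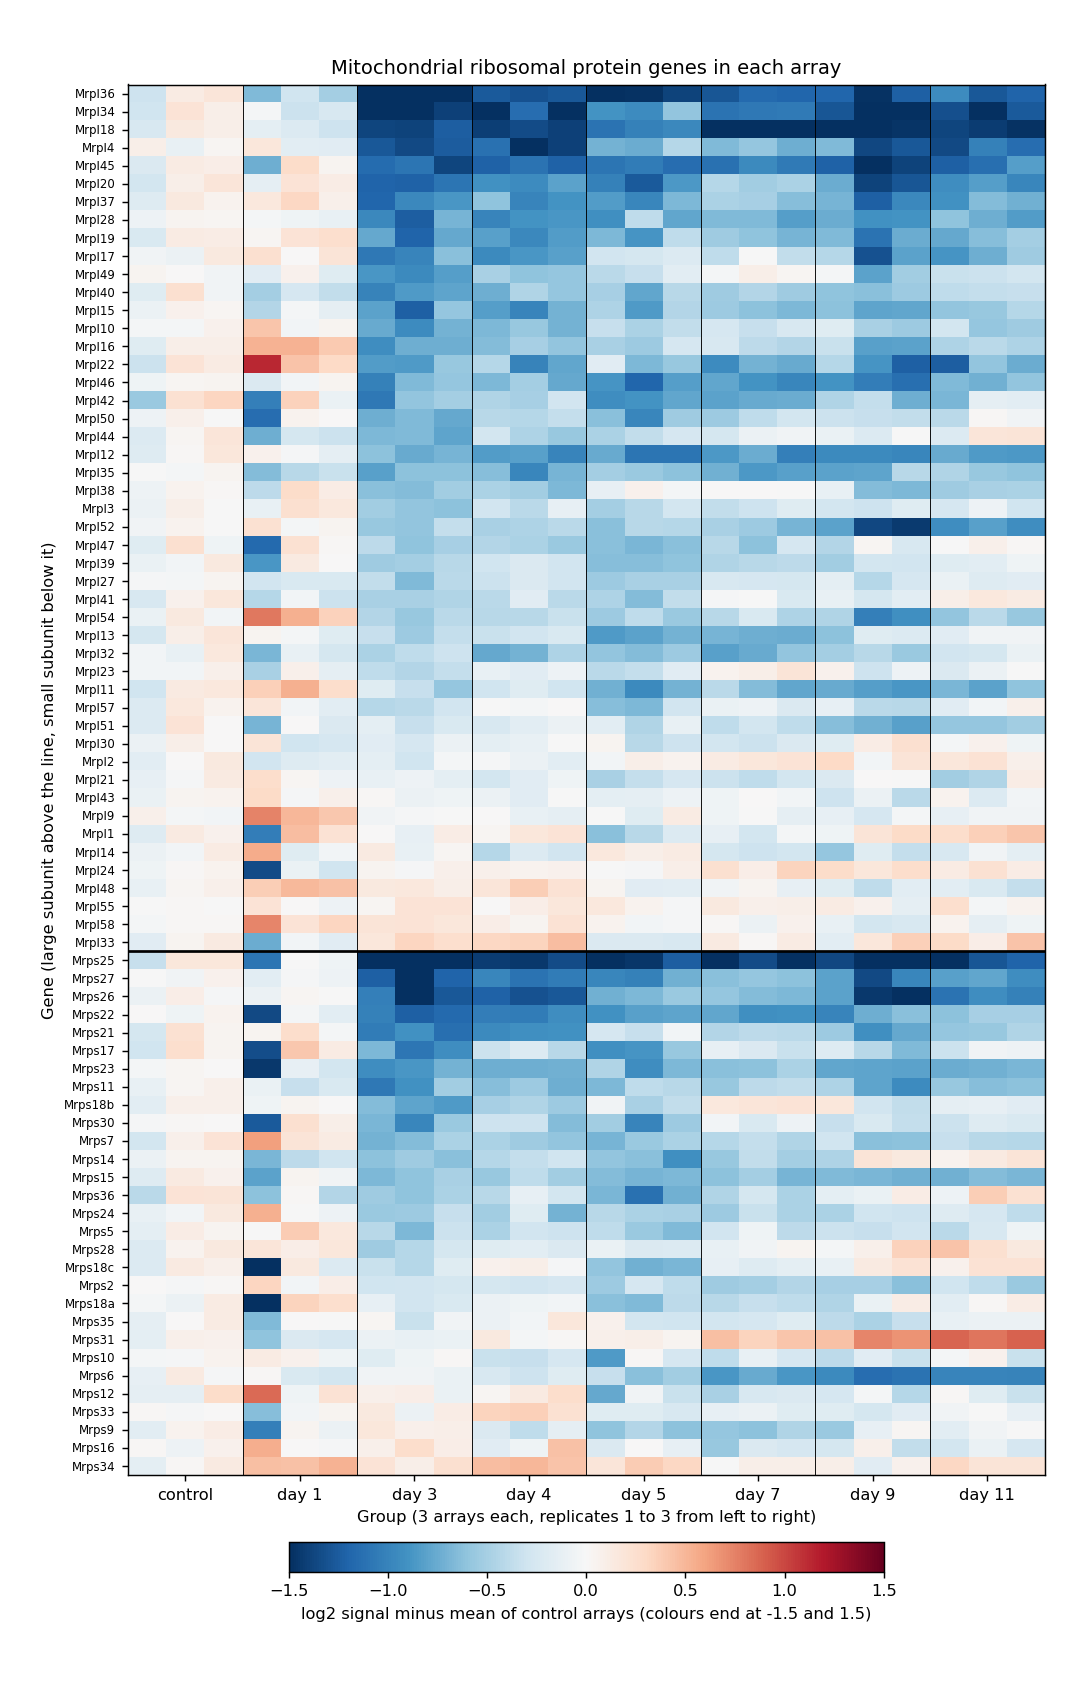
Log2 signal of each of the 77 members in each of the 24 arrays, minus the mean of the 3 control arrays of that gene. Large subunit genes stand above the black line and small subunit genes below it, each ordered by the change on day 3, and blue marks values below control; the blue block begins on day 3 and is paler on day 11, and day 1 replicate 1, the leftmost day 1 column, differs from the other day 1 arrays.

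From day 3 on, many mitochondrial ribosomal protein genes were lower than in control cells and almost none were higher. On day 3, 51 of the 77 members passed the test as lower (limma, Benjamini-Hochberg adjusted p below 0.05 over 19938 genes), against 13.9% of all genes. No member passed as higher, against 12.4% of all genes. With arrays centred on medians the shares of all genes were 14.1% lower and 7.89% higher. At an unadjusted p below 0.05, limma gave 53 members lower and 0 higher. The median change of the members was -0.51 on the log2 scale, while the median over all genes was 0.07. In 52 members all 3 day 3 arrays lay below all 3 control arrays, and in 5 they lay above. The same count was not made over all genes, so these counts have no background to be set against.

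The fall was still present on each later day. On day 4, 37 members were lower (12.9% of all genes) and 1 was higher (14.0%), with a median change of -0.39. On day 5, 46 were lower (10.3%) and 1 higher (17.2%), with a median of -0.50. On day 7 the counts were 35 lower (9.44%) and 1 higher (16.0%), with a median of -0.38. On day 9 they were 38 lower (14.0%) and 1 higher (13.1%), with a median of -0.40. With arrays centred on medians, which moved the median of all genes to -0.12 that day, the shares of all genes were 17.0% lower and 8.80% higher and the members' median was -0.51. On day 11, 33 were lower (11.8%) and 1 was higher (14.0%), and the median change was -0.25. With day 1 replicate 1 left out of the fit, 4 members were higher on day 4 and 2 on each of days 7, 9 and 11. The shares of all genes higher were then 17.8%, 19.6%, 17.1% and 17%. Without the 3 arrays named above, 36 were lower and 5 higher on day 11, against 16.3% and 18.3% of all genes. That omission leaves day 9 with 1 array, whose spread is then assumed to be that of the other groups, and 37 members were lower and 1 higher there.

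Dim genes rarely pass the test, and members are brighter than most genes. Among the 9570 genes at least as bright as the dimmest member, 26.8% were lower on day 3 and 21.2% on day 11, a background chosen after the data were seen. The shares of members were 66.2% and 42.9%. For genes higher on those days the bright background was 21.0% and 26.5%.

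**Figure D2:**
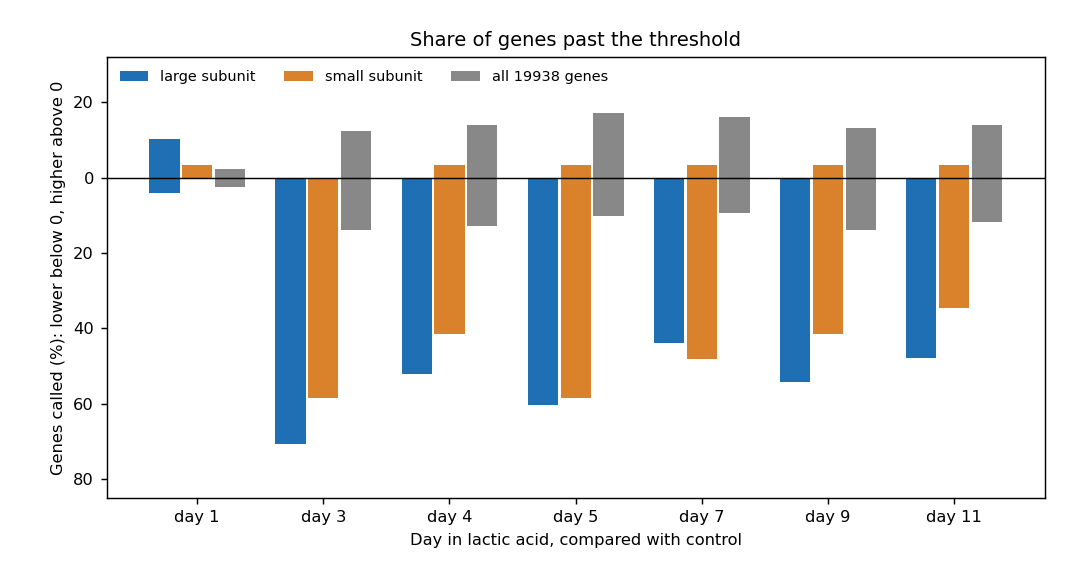
Share of genes past the threshold on each day against control, drawn upward for higher and downward for lower, for the 48 large subunit genes, the 29 small subunit genes and all 19938 genes. On day 3, 70.8% of large and 58.6% of small subunit genes were lower, against 13.9% of all genes.

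Individual time courses differed. There were 23 members lower on all 6 days from day 3 on, 16 of the large and 7 of the small subunit. Another 21 were lower on day 3 but not called on day 11, and 7 were lower on both of these days but not on all 6. Lower on day 11 but not on day 3 were Mrpl51, Mrps2 and Mrps6, and Mrpl47, Mrps9 and Mrps35 were lower on other days only. The other 20 were called lower on no day from day 3 on. By the mean of the 3 arrays, 29 members were lowest on day 3. Day 5 and day 9 were lowest for 17 each, and day 11 for 2.

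Of the large subunit, Mrpl18 fell most on day 11. Its bacterial counterpart binds the 5S ribosomal RNA. Its log2 signal was 9.92, 10.31 and 10.25 in the control arrays, 8.78, 8.77 and 8.93 on day 3 and 8.78, 8.74 and 8.68 on day 11. All treated arrays from day 3 on lay below all control arrays. The change was -1.33 (SE 0.11) on day 3 and -1.43 (SE 0.11) on day 11, 2.69-fold lower with limma's adjusted p = 5.58e-10. The largest change of this gene was on day 7, -1.64 (SE 0.11, adjusted p = 6.23e-11).

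Mrpl34, the counterpart of the small bacterial protein L34, read 7.38, 7.88 and 7.76 in control arrays. It read 5.75, 5.89 and 6.27 on day 3, 6.78, 6.74 and 7.08 on day 5. The day 11 arrays read 6.35, 6.04 and 6.42. The 3 groups of treated arrays did not overlap the control arrays, and day 5 was the highest of the 3. The change was -1.71 (SE 0.19, 3.26-fold lower, adjusted p = 2.62e-07) on day 3 and -1.40 (SE 0.19, 2.65-fold lower, adjusted p = 3.14e-06) on day 11.

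Mrpl36, a small protein whose bacterial counterpart binds zinc, read 7.88, 8.31 and 8.38 in control arrays. On day 3 it read 6.61, 6.38 and 6.44, and on day 11 it read 7.25, 6.92 and 6.99. Both groups lay below control, and all day 11 arrays lay above all day 3 arrays. It changed by -1.71 (SE 0.13, adjusted p = 1.5e-09) on day 3 and by -1.14 (SE 0.13, adjusted p = 4.28e-07) on day 11. The rise from day 3 to day 11 was 0.58 (SE 0.13, adjusted p = 0.00503).

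Mrpl4 and Mrpl45 also fell by more than 1 log2 unit on days 3 and 11. Mrpl4, whose bacterial counterpart lines the exit tunnel, read 8.54, 8.33 and 8.47 in control arrays and 7.18, 7.09 and 7.20 on day 3. On day 11 it read 7.09, 7.43 and 7.31, a change of -1.17 (SE 0.16, adjusted p = 3.07e-06). Mrpl45, which attaches the ribosome to the inner membrane, read 7.93, 8.26 and 8.24 in controls and 6.92, 7.02 and 7.32 on day 11. Its change was -1.21 (SE 0.18) on day 3 and -1.06 (SE 0.18, adjusted p = 6.08e-05) on day 11, with no overlap between treated and control arrays on either day.

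Proteins known to form 1 site of the large subunit were looked at after their values had been seen. The stalk, which brings the translation factors to the ribosome, is built from Mrpl10, Mrpl11 and Mrpl12, and all 3 were lower on days 3 and 11. Mrpl12 read 8.46, 8.68 and 8.83 in controls and 7.91, 7.81 and 7.79 on day 11, a change of -0.82 (SE 0.12, adjusted p = 7.48e-06). Mrpl10 changed by -0.46 (SE 0.13) and Mrpl11 by -0.70 (SE 0.14) on day 11. Around the tunnel exit, Mrpl22 and Mrpl23 were lower on day 3 (-0.75 and -0.39, adjusted p = 0.0148 and 0.0235), and Mrpl24 had a change of 0.04 (adjusted p = 0.925). The differences between these genes were not tested. On day 11 Mrpl22 changed by -0.86 (SE 0.23, adjusted p = 0.00551), Mrpl23 had a change of -0.11 (SE 0.13, adjusted p = 0.668) and Mrpl24 one of 0.15 (SE 0.19, adjusted p = 0.671).

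**Figure D3:**
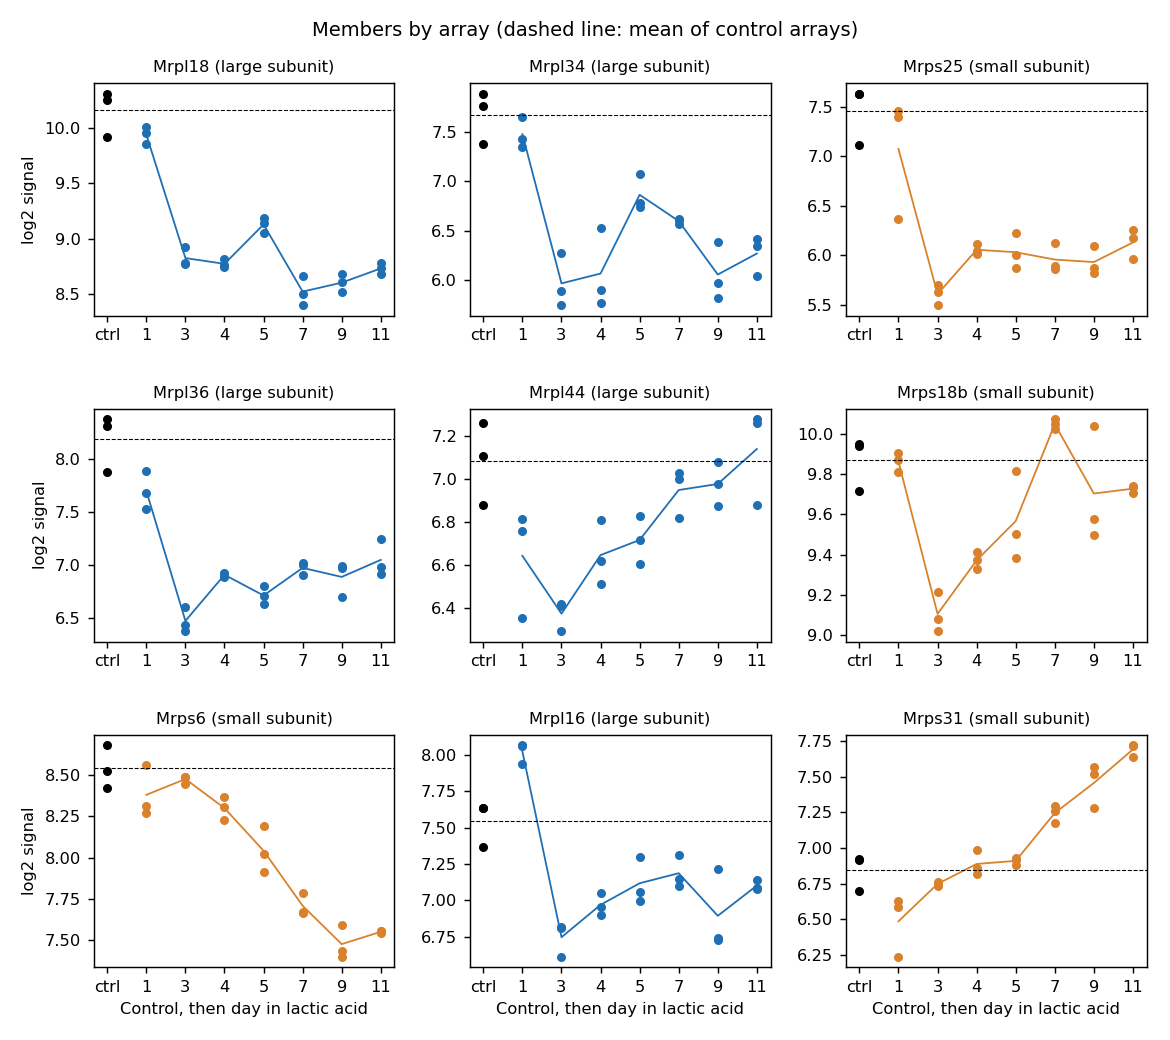
Log2 signal of 9 members in each array, with control arrays in black, treated arrays in blue (large subunit) or orange (small subunit), and a line through the means of the treated days. Mrpl18, Mrpl34, Mrps25 and Mrpl36 lie below the control mean from day 3 on, Mrpl44 and Mrps18b return towards it, Mrps6 falls late, Mrpl16 is above it on day 1 only and Mrps31 rises to day 11.

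Of the small subunit, Mrps25 fell most. It is found in mitochondrial but not in bacterial ribosomes. It read 7.12, 7.63 and 7.63 in control arrays, 5.49, 5.62 and 5.70 on day 3 and 5.96, 6.17 and 6.25 on day 11. The treated arrays of both days lay below all controls. The change was -1.85 (SE 0.20, 3.61-fold lower, adjusted p = 2.01e-07) on day 3, the largest fall of any member in any comparison with control, and -1.33 (SE 0.20, adjusted p = 1.47e-05) on day 11.

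Mrps27, an RNA-binding protein of the pentatricopeptide repeat family, read 7.48, 7.42 and 7.54 in control arrays and 6.26, 5.98 and 6.28 on day 3. On day 11 it read 6.67, 6.70 and 6.55, below control but above day 3. Its changes were -1.31 (SE 0.13) and -0.84 (SE 0.13, adjusted p = 1.34e-05). Mrps26, another mitochondria-specific protein, changed by -1.26 (SE 0.15) on day 3 and by -1.02 (SE 0.15, adjusted p = 8.22e-06) on day 11. Both were named after their values had been seen.

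Mrps6, also singled out after its values were seen, fell late. It is the counterpart of bacterial S6 and read 8.42, 8.68 and 8.53 in control arrays and 8.49, 8.49 and 8.45 on day 3. It read 8.19, 7.91 and 8.02 on day 5, 7.67, 7.79 and 7.67 on day 7. The day 11 values were 7.56, 7.56 and 7.54. Day 3 arrays lay among the controls, and the arrays of days 5, 7 and 11 lay below them. The change was -0.07 (SE 0.11, adjusted p = 0.731) on day 3 and -0.99 (SE 0.11, adjusted p = 1.34e-07) on day 11. Day 11 was lower than day 3 by -0.93 (SE 0.11, adjusted p = 3.15e-06).

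Mrps31 was the only member called higher on days 7, 9 and 11. It is a mitochondria-specific protein of the small subunit, first described as an autoantigen of pancreatic islets. Its log2 signal was 6.70, 6.92 and 6.91 in control arrays, 6.24, 6.63 and 6.59 on day 1, and 6.76, 6.73 and 6.75 on day 3. It was 7.30, 7.18 and 7.26 on day 7, 7.28, 7.57 and 7.52 on day 9. Day 11 gave 7.72, 7.64 and 7.72. From day 7 on all treated arrays lay above all control arrays. The change was 0.40 (SE 0.11, adjusted p = 0.00915) on day 7, 0.61 (SE 0.11, adjusted p = 0.000167) on day 9 and 0.85 (SE 0.11, 1.80-fold higher, adjusted p = 2.69e-06) on day 11. The day 7 call was lost under cyclic loess scaling (0.25, adjusted p = 0.105) and without control replicate 1 (0.33, adjusted p = 0.0646).

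Mrps34, which the small subunit needs for its stability, was the member called higher on days 4 and 5. It read 7.68, 7.85 and 7.97 in control arrays and 8.30, 8.33 and 8.26 on day 4. All day 4 arrays lay above all controls, with a change of 0.46 (SE 0.10, adjusted p = 0.00128). On day 5 it read 8.01, 8.22 and 8.14, a change of 0.29 (SE 0.10, adjusted p = 0.0397) that was lost in 7 of 16 alternatives, among them each of the omissions of control replicates 1 and 2 and of day 5 replicates 2 and 3. On day 11 the change was 0.23 (SE 0.10, adjusted p = 0.12).

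The subunits were set side by side by counts and medians, with no test of their difference. On day 3, 34 of 48 large and 17 of 29 small subunit genes were lower, with median changes of -0.54 and -0.48. On day 5 the counts were 29 and 17 and the medians -0.49 and -0.54. On day 7 they were 21 and 14, and on day 9 they were 26 and 12. On day 11, 23 large and 10 small subunit genes were lower, with medians of -0.32 and -0.21, and no large subunit gene was higher on any day from day 3 on (0 at an unadjusted p below 0.05 in limma, except 2 on day 4). As shares of each subunit this is 47.9% and 34.5% on day 11, and 43.8% and 48.3% on day 7. In the main fit neither subunit thus had the larger share on every day. The order on day 7 depended on the scaling. Lower there were 28 large and 16 small subunit genes under cyclic loess, and 18 and 9 with arrays centred on medians. Under both scalings the large subunit had the larger share on every day from day 3 on.

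Per array, the mean over each subunit's genes moved together, except in day 1 replicate 1. In that array the large subunit stood at -0.16 and the small at -0.43 relative to the control mean, a difference of 0.27. Relative to the control mean, the large subunit stood at -0.14, 0.06 and 0.07 in the control arrays, and at -0.59, -0.62 and -0.51 on day 3. On day 11 it stood at -0.44, -0.39 and -0.36. The small subunit stood at -0.13, 0.05 and 0.08 in controls, at -0.51, -0.58 and -0.47 on day 3, and at -0.30, -0.25 and -0.28 on day 11. All arrays from day 3 on were below all control arrays for both subunits. The difference of the mean changes, large minus small, was -0.06 on day 3 and -0.10 on day 4. On day 5 it was 0.00, on day 7 it was -0.04, and both day 9 and day 11 had -0.12. In single arrays it ran from -0.15 to -0.08 on day 11 and from -0.01 to 0.01 in controls.

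**Figure D4:**
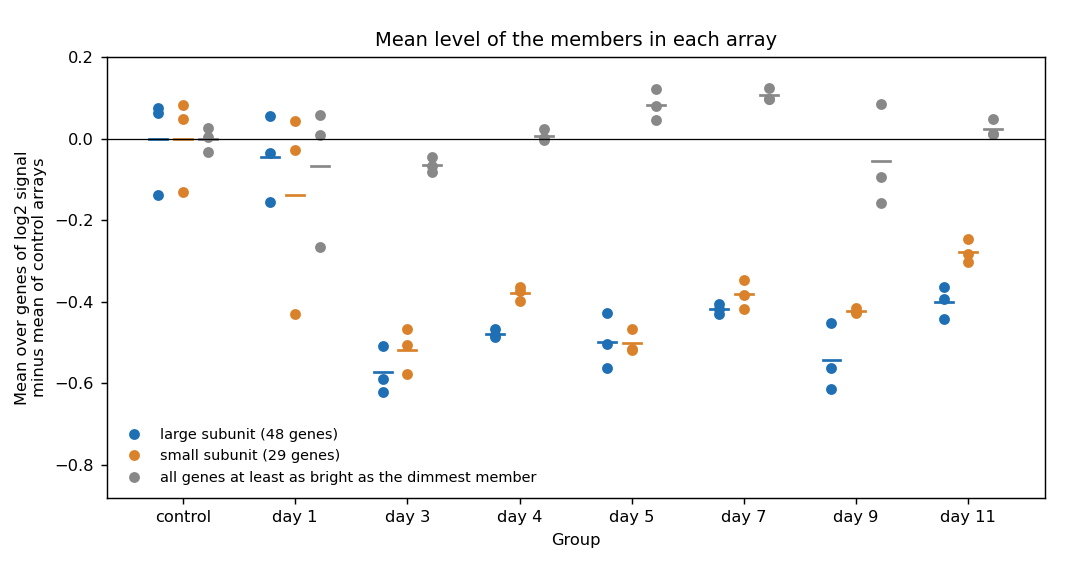
Mean over large subunit genes (blue), small subunit genes (orange) and all genes at least as bright as the dimmest member (grey) in each array, as log2 signal minus the mean of the control arrays. Points are arrays and bars are means of 3; from day 3 on both subunits lie between -0.62 and -0.25 in every array, and the lowest point of day 1 is replicate 1.

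Symbols do not always name the place of a protein. In structures of the mammalian ribosome the products of Mrps18a and Mrps30 lie in the large subunit, and Mrps36 is known as part of the oxoglutarate dehydrogenase complex. With 50 large and 26 small subunit genes by structure, the difference of the mean changes was -0.076 on day 4 and -0.084 on day 11. By symbol, the 1 day 9 array left without the 3 arrays that stood apart, replicate 1, had a difference of -0.036. Mrps30 was lower on day 3 (-0.74, SE 0.24, adjusted p = 0.0242), and Mrps18a had a change of -0.21 (SE 0.28, adjusted p = 0.664).

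Members were also split by descent, an assignment made from general knowledge after the values had been seen. On day 3, 29 of 45 genes with a bacterial counterpart and 20 of 28 mitochondria-specific genes were lower, with medians of -0.48 and -0.66. On day 11 the counts were 21 and 12, with medians of -0.28 and -0.32. Mrps18a, Mrps18b, Mrps36 and Mrpl55 were left unassigned.

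After 1 day few members differed from control. Called lower were 2 members, against 2.52% of all genes, and called higher were 6, against 2.30%. The 2 lower members were Mrpl35 and Mrpl36, and the 6 higher ones Mrpl54, Mrpl9, Mrpl16, Mrps34, Mrpl48 and Mrpl58. Mrpl58, also known as ICT1, frees chains from stalled ribosomes, and had a change of 0.42 (SE 0.12, adjusted p = 0.0359). The median change of the members was -0.10, and -0.01 without day 1 replicate 1. These calls were the least stable: none was made with only the 6 arrays compared. Without day 1 replicate 1 no member was lower and 3 were higher, against 1.91% and 2.68% of all genes.

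Mrpl54 and Mrpl16 were called in opposite directions on different days. Mrpl16, whose bacterial counterpart joins late in assembly near the site of peptide bond formation, read 7.36, 7.64 and 7.64 in control arrays. It read 8.07, 8.06 and 7.94 on day 1, above all controls, and 6.61, 6.82 and 6.81 on day 3, below them. The change was 0.48 (SE 0.13, adjusted p = 0.0332) on day 1 and -0.80 (SE 0.13, adjusted p = 3.74e-05) on day 3. On day 11 it was -0.44 (SE 0.13, adjusted p = 0.0109), a call lost without control replicate 2 (adjusted p = 0.0549), without control replicate 3 (0.0543) and with arrays centred on medians (0.0511). The day 1 call was lost in 7 alternatives, in which the fit without day 1 replicate 1 (adjusted p = 0.0586) is counted under 2 names. From day 1 to day 3 it fell by 1.27 (SE 0.13, adjusted p = 5.74e-08).

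Mrpl54, a mitochondria-specific protein, read 6.79, 7.04 and 6.85 in control arrays and 7.69, 7.43 and 7.23 on day 1. On day 3 it read 6.45, 6.33 and 6.49. Day 1 arrays lay above and day 3 arrays below all controls, with changes of 0.56 (SE 0.14, adjusted p = 0.0202) and -0.47 (SE 0.14, adjusted p = 0.0121). The day 1 call was lost in 6 alternatives, in which the fit without day 1 replicate 1 (adjusted p = 0.0697) is counted under 2 names. The day 3 call was lost without control replicate 2 (adjusted p = 0.0747) or day 3 replicate 2 (0.0557).

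Mrpl9, the counterpart of bacterial L9, was higher on day 1 alone. It read 7.94, 7.83 and 7.82 in control arrays, 8.61, 8.37 and 8.27 on day 1 and 7.81, 7.84 and 7.85 on day 3. Day 1 arrays lay above all controls (0.55, SE 0.11, adjusted p = 0.00382) and those of day 3 overlapped them (-0.03, SE 0.11, adjusted p = 0.89). Mrpl48 read 7.25, 7.39 and 7.43 in controls and 7.73, 7.85 and 7.80 on day 1, a change of 0.43 (SE 0.10, adjusted p = 0.0179). Mrpl35 went the other way: it read 8.52, 8.49 and 8.56 in controls and 7.87, 8.10 and 8.19 on day 1, with a change of -0.47 (SE 0.12, adjusted p = 0.0268), and stayed below all controls on each later day.

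In comparisons between treated days the differences of means do not involve the control arrays, but the spread used by the test is pooled over all 8 groups, controls included. From day 1 to day 3, 40 members fell (13.7% of all genes) and 2 rose (13.6%), with a median change of -0.41. The largest fall was that of Mrpl34, -1.51 (SE 0.19, adjusted p = 1.29e-06). The 2 that rose, Mrpl33 (0.57) and Mrpl24 (0.62), had their lowest value in day 1 replicate 1. Without that array 1 member rose (16.7% of all genes) and 49 fell (17.3%).

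From day 4 to day 5, 7 members fell (3.29% of all genes) and 7 rose (9.06%). Each count is 9.09% of the members. The share that rose was thus near that of all genes and under the 16.2% of genes at least as bright as the dimmest member. Of those bright genes 6.07% fell. The members that rose were Mrpl34 (0.80), Mrps21 (0.71), Mrpl4 (0.71), Mrpl17 (0.63), Mrps26 (0.62), Mrpl38 (0.52) and Mrpl18 (0.36), and all 7 had been lower than control on day 4. The members that fell were Mrpl33, Mrps36, Mrpl11, Mrpl57, Mrps33, Mrpl13 and Mrpl48, by 0.59 to 0.36. With day 1 replicate 1 left out of the fit, 14 fell and 8 rose, against 7.81% and 14.6% of all genes.

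From day 3 to day 11, 14 members rose (8.33% of all genes) and 2 fell (5.32%), with a median change of 0.23 where the median of all genes was -0.08. Among genes at least as bright as the dimmest member, 16.2% rose and 7.48% fell, with a median change of 0.10. The members' shares were 18.2% and 2.6%, so the share that rose lay near that of genes of like brightness. The size of the rise depended on the scaling. Under cyclic loess the members' median was 0.12 (all genes -0.004), with 11 higher and 5 lower. With arrays centred on medians it was 0.32 (all genes 0.02), with 16 higher and 1 lower. Mrps31 rose most (0.95, SE 0.11, adjusted p = 4.29e-06). Mrpl44, which resembles an RNA-cleaving enzyme of the RNase III family, read 6.88, 7.11 and 7.26 in control arrays, 6.41, 6.42 and 6.29 on day 3 and 6.88, 7.26 and 7.28 on day 11. Its day 3 arrays lay below all control and day 11 arrays, which overlapped, and it rose by 0.77 (SE 0.14, adjusted p = 0.00054) from day 3 to day 11.

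Mrps18b, 1 of 3 relatives of bacterial S18, read 9.71, 9.95 and 9.94 in control arrays and 9.22, 9.08 and 9.02 on day 3. On day 11 it read 9.74, 9.74 and 9.70, which overlapped the controls, and it had risen by 0.62 (SE 0.13, adjusted p = 0.00189). Mrps14, Mrps36 and Mrps28 rose by 0.72, 0.71 and 0.68. Besides Mrps6, Mrpl48 fell, by 0.38 (SE 0.10, adjusted p = 0.0162). Without day 1 replicate 1 in the fit, 29 members rose and 5 fell, against 13.7% and 11.2% of all genes.

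Between the 7 treated days, 57 members differed by limma's F test, against 44.8% of all genes. Among genes at least as bright as the dimmest member the share was 76.2%, and among members it was 74.0%, so the members' share lay near that of genes of like brightness.

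Many members lie head to head with another gene. In the RefSeq table, 27 of 68 members with an entry (39.7%) had a start of another gene on the opposite strand at most 1000 bases upstream or overlapping by at most 200, against 13.6% of 27025 genes. Mrpl46 and Mrps11 face each other with starts 42 bases apart, so the Mrps11 window printed above also spans the Mrpl46 start. Mrpl46 read 7.19, 7.29 and 7.30 in controls and 6.60, 6.54 and 6.67 on day 11, a change of -0.66 (SE 0.13, adjusted p = 0.000288). Mrps11 read 5.92, 6.05 and 6.10 in controls and 5.46, 5.39 and 5.41 on day 11, a change of -0.61 (SE 0.14, adjusted p = 0.00155). In both, treated and control arrays did not overlap.

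Pairs chosen after their values were seen show both kinds. Hira, a histone chaperone gene opposite Mrpl40, was lower on day 3 (-0.47, adjusted p = 0.00435) and day 11 (-0.50, adjusted p = 0.00251), as was Mrpl40 (-0.88 and -0.36). Mrpl37 and Cyb5rl were both lower on day 11 (-0.76 and -0.28), as were Mrpl51 and Ncapd2 (-0.56 and -2.85). The Mrpl51 call rests on the probe set used, and its other probe set did not pass (0.24, SE 0.16). Tcp1, which encodes a subunit of the cytosolic chaperonin and faces Mrpl18 across 238 bases, changed by -0.34 (SE 0.16, adjusted p = 0.126) on day 11. Sars2, the mitochondrial seryl-tRNA synthetase opposite Mrps12, fell by 1.16 (SE 0.15, adjusted p = 2.64e-06), while Mrps12 itself had a change of -0.17 (SE 0.20, adjusted p = 0.655). On day 3, partners were measured for 25 members: of the 16 members called lower, 5 had a partner called lower and 2 a partner called higher, and of the other 9 the counts were 3 and 1. On day 11, of the 9 members called lower, 5 had a partner called lower and 0 a partner called higher, and of the other 16 the counts were 4 and 3. Mrpl46 and Mrps11 are each other's partner and both were lower on both days, so their pair enters these counts from both sides. Of all genes, 13.9% were lower and 12.4% higher on day 3, and 11.8% and 14.0% on day 11. The difference between the counts was not tested.

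The partner proteins and factors of the mitochondrial ribosome were taken from lists chosen with earlier results of these data known. As a background for this and the following lists, 26.8% of genes at least as bright as the dimmest member were lower and 21% higher on day 3. On day 11 the shares were 21.2% and 26.5%. Of 4 ribosomal proteins with other symbols, 2 were lower on day 3 and 1 on day 11. The latter was Dap3, a GTP-binding protein of the small subunit (-0.67, SE 0.14, adjusted p = 0.000837). Of 17 mitochondrial translation factors, 8 were lower and 1 higher on day 3, and 7 and 1 on day 11. Tufm, which delivers aminoacyl-tRNA, fell by 1.44 on day 11 (SE 0.15, adjusted p = 5.74e-08) and Gfm1, the elongation factor that moves the ribosome along, by 0.77 (SE 0.11, adjusted p = 9.29e-06). Mtrf1, a release factor homologue, rose by 0.43 (SE 0.15, adjusted p = 0.0394).

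Of 25 assembly factors, 9 were lower and 1 higher on day 3, and 5 were lower (20%) and 3 higher (12%) on day 11. The day 11 share of lower genes was near the 21.2% of genes at least as bright as the dimmest member, and that of higher genes was under their 26.5%. Eral1, a chaperone of the small subunit's RNA, fell by 0.90 (SE 0.18, adjusted p = 0.000466) and Noa1, a GTPase, by 0.67 (SE 0.17, adjusted p = 0.00455). Mterf3, which acts in large subunit assembly, rose by 1.09 (SE 0.12, adjusted p = 1.43e-07), and Mettl15, a methyltransferase of the small subunit's RNA, by 0.55 (SE 0.17, adjusted p = 0.0209). Of 21 mitochondrial tRNA synthetases and related enzymes, 11 were lower and 2 higher on day 3, and 8 and 1 on day 11, with Gatb at -1.05 (SE 0.19) and Ears2 at 0.69 (SE 0.13). Of 16 genes of mitochondrial transcription and DNA maintenance, 5 were lower and 0 higher on either day (0 higher also at an unadjusted p below 0.05 in limma), among them the RNA-processing enzymes Elac2 (-0.94) and Pnpt1 (-0.65) on day 11. On day 3 the share of lower genes in this list was near the 26.8% of genes at least as bright as the dimmest member.

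Nuclear genes of the respiratory chain and ATP synthase, whose complexes hold the products of the mitochondrial ribosome, counted 43 lower and 3 higher of 66 on day 3, with a median of -0.57. On day 11 they counted 33 lower and 6 higher, with a median of -0.36. Uqcrc1, a core subunit of complex III, fell by 1.48 (SE 0.16, adjusted p = 8.76e-08) and Cox7b, a subunit of complex IV, by 1.09 (SE 0.12). Ndufb11 and Ndufa2, subunits of complex I, rose by 0.65 and 0.64. Of 27 genes of protein import, 15 were lower and 2 higher on day 3 and 10 and 5 on day 11. Tomm40, the pore of the outer membrane, fell by 1.61 (SE 0.13, adjusted p = 6.43e-10), Tomm22, its receptor, fell by 1.29 (SE 0.11), and Timm21 and Dnajc19, of the inner membrane machinery, rose by 1.06 and 0.63.

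Of 60 proteins of the cytosolic ribosome, the other ribosome of the cell, 5 were lower and 22 higher on day 3, with a median of 0.23, and 2 were lower and 22 higher on day 11, with a median of 0.23. The 22 higher are 36.7% of the list, against 21.0% of the bright genes on day 3 and 26.5% on day 11, while on day 7 the list had 12 higher (20%) against 29.9%. With arrays centred on medians the counts of higher genes on days 3 and 11 were 14 and 15, and the medians stayed above 0 under that scaling and under cyclic loess. Rps28 and Rps29 each rose by 0.98 on day 11 (SE 0.13), and the 2 that fell were Rplp0, part of the stalk, by 0.54, and Rpsa, by 0.27. Many cytosolic ribosomal protein genes have near-identical pseudogene copies, and how their probes separate them is not given in the sources used here. Mitochondrial proteases and peptidases, with the Clpp partner Clpx, counted 6 lower and 0 higher of 9 on day 3 (0 higher at an unadjusted p below 0.05 in limma), and 5 and 1 on day 11, when Lap3 and Htra2 fell by 1.07 and 1.02 and Clpx rose by 0.41. Of 18 regulators of nuclear mitochondrial genes, 7 were lower and 2 higher on day 3 and 4 and 3 on day 11. On day 11 their share of lower genes was near the 21.2% of genes at least as bright as the dimmest member. Their share of higher genes was under the 26.5% of that background. On day 11 E2f1 (-0.60) and Hcfc1 (-0.58) were lower and Atf5 (0.82) and Myc (0.55) higher.

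**Figure D5:**
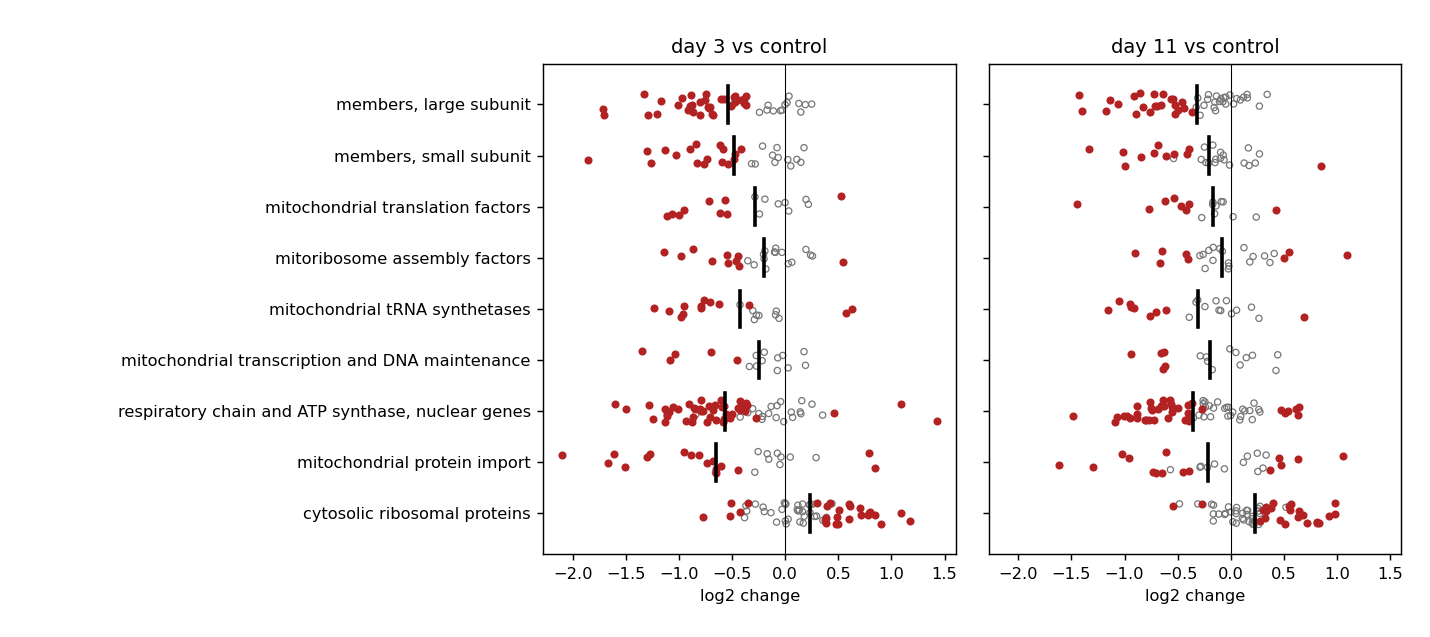
Log2 change on day 3 (left) and day 11 (right) against control for the members and 7 other gene lists. Each point is a gene, red where it passed the threshold and open where it did not, and the black bar is the list's median; both subunits' medians lie left of 0 on both days, and that of the cytosolic ribosomal proteins, 0.23, lies right of it.

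Mean log2 signal over the 24 arrays ran from 5.35 for Mrps36, 5.53 for Mrps11 and 5.99 for Mrps12 to 9.10 for Mrpl24, 9.40 for Mrps15 and 9.66 for Mrps18b. These values depend on the probes and are not compared between genes. Mrps15, 1 of the brightest, was lower on all 6 days from day 3 on, and read 9.70, 10.03 and 9.96 in controls and 9.18, 9.24 and 9.22 on day 11. Its treated and control arrays did not overlap on that day. Mrpl24, which lies at the tunnel exit, was lower on none: it read 9.01, 9.09 and 9.13 in controls, 7.73, 8.98 and 8.78 on day 1 and 9.20, 9.31 and 9.19 on day 11, with the lowest of these in day 1 replicate 1. Mrps36 read 5.22, 5.84 and 5.83 in controls and 5.09, 5.02 and 5.16 on day 3, below them. Mrps12, the counterpart of a protein of the bacterial decoding centre, read 5.93, 5.93 and 6.33 in controls and 6.08, 5.88 and 5.72 on day 11, which overlapped.

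For 8 members the array holds more than 1 probe set, 85 probe sets in all for the 77 members, and in some they disagreed. The probe set used for Mrpl51 changed by -0.56 on day 11 (SE 0.14, adjusted p = 0.00449 over all probe sets) and its other probe set by 0.24 (SE 0.16, adjusted p = 0.327). For Mrpl27 on day 3 the used probe set gave -0.48 (SE 0.10) and the other -0.21 (SE 0.13, adjusted p = 0.286). For Mrps5 on day 11 the probe set used did not pass (-0.23, adjusted p = 0.238), and the other did (-0.42, SE 0.11, adjusted p = 0.00536). Mrpl53 is not among the members because its only probe set also carries the symbol Ccdc142: that probe set changed by -0.11 (SE 0.12, adjusted p = 0.622) on day 3 and by -0.30 (SE 0.12, adjusted p = 0.0917) on day 11 in a fit over all 35557 probe sets.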

How the data were processed

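The deposited values are log2 signals. The submitters' processing notes name RMA and Affymetrix Expression Console, version 1.1, and the log base is inferred from the range of 0.96 to 14.71. RMA shares one distribution between arrays, so changes are relative to the other genes. Of 35557 probe sets, 21789 carried 1 symbol in the 2016 annotation table, 1621 several and 12147 none. Each gene took its probe set of highest mean, which gave 19938 genes, with array medians of 4.40 to 4.75 and a median SD between replicates of 0.198. The number of arrays, 3 per group, limits the precision.

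All 24 arrays entered 1 limma fit (limma 3.58.1, R 4.3.3) with a mean per group and 16 residual degrees of freedom. Comparisons were each day against control, days 3 against 1, 5 against 4 and 11 against 3, and an F test between the 7 treated days, with Benjamini-Hochberg adjustment over all genes and a threshold of 0.05. The procedure was tested on simulated data. Figures were drawn with matplotlib 3.10.9. Members and lists were chosen with earlier results of these data known. Array values are given for the 6 members that fell or rose most on day 11, the 3 that did so on other days, those called in opposite directions, those called higher, and the 3 brightest and 3 dimmest; other lists show up to 2 rises and 2 falls on day 11. Further members were named after their values were seen. Alternatives changed the probe-set rule, the filter, the scaling, the variance model, the arrays used and the threshold. Replicate numbers were not used to pair the arrays in the main fit. Of 84 same-numbered pairs 16 had deviations that correlated above 0.1, with a median r of -0.001. Of 168 differently numbered pairs 24 did, with a median r of 0.001. A probe set shared by Mrpl53 and another gene was left out of the members. Promoters came from the RefSeq table for GRCm38.p6, which matched 68 of 77 members. Genes of mitochondrial DNA were not analysed here.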

Additional observations from a re-analysis of the deposited data

Results flagged for a closer look

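Changes between treated days were listed where they passed limma's test of that difference, whose estimate of spread pools all groups. From day 3 to day 11 the changes were 0.95 for Mrps31, 0.77 for Mrpl44, 0.72 for Mrps14, 0.71 for Mrps36, 0.68 for Mrps28, 0.62 for Mrps18b, 0.60 for Mrpl41, 0.58 for Mrpl36, 0.57 for Mrpl49, 0.52 for Mrpl40, 0.50 for Mrps21, 0.46 for Mrps27, 0.37 for Mrpl3, 0.32 for Mrpl27, -0.38 for Mrpl48 and -0.93 for Mrps6. Of these 16 genes, Mrps31 and Mrps6 were the ones that did not differ from control on day 3 and did on day 11, in opposite directions.

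Between days 1 and 3, 40 members were lower and 2 higher on the later day. Mrpl16 and Mrpl54, both above control on day 1 and below it on day 3, changed by -1.27 and -1.03 between those days. Between days 4 and 5, 7 members were lower and 7 higher on the later day. With 3 arrays a group, no test for single outlying arrays was made.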

How the results depend on the processing

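No member called in the main fit was called in the opposite direction, in the same comparison, by any of 15 alternatives. Members not called in the main fit were not checked for this. Over 15 alternatives, leaving aside the stricter threshold and the fits of only the 6 arrays compared, 36 of 51 members lower on day 3 kept their call in every one, as did 27 of 33 on day 11. All day 1 calls were lost in at least 1 alternative except 1 of the 6 higher ones. The cause of the changes below was not tested. Shares over all genes were computed only for the main fit, cyclic loess, median centring and the omissions of day 1 replicate 1 and of the 3 arrays. The counts below from other settings, array weights among them, have no background to be set against.

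With array weights, whose estimate did not converge and which ran from 0.013 to 28.3, members lower were 25 on day 1 (against 2), 56 on day 4 (37), 57 on day 7 (35) and 59 on day 9 (38), and members higher were 1, 4, 2, 7 and 4 on days 3, 4, 7, 9 and 11. With the 3 arrays that stood apart left out, members higher were 1, 4, 2 and 5 on days 3, 4, 7 and 11. The shares of all genes higher were then 18.7%, 18.9%, 20.9% and 18.3%. With day 1 replicate 1 left out of every fit, an alternative added after the data were seen, 0 were lower and 3 higher on day 1, and 4, 2, 2 and 2 were higher on days 4, 7, 9 and 11. With cyclic loess, 5 were lower on day 1, and 2, 0 and 0 were higher on days 4, 5 and 7. With arrays centred on medians, 0 were lower and 1 higher on day 1, and 0 higher on day 5. Without the dimmest genes, 7 were lower on day 1 and 4 higher on day 4, and with a mean trend and robust variances 4 were lower on day 1. At an adjusted p below 0.01, 0 were lower and 1 higher on day 1 and 0 higher on day 5. With only the 6 arrays compared, 0 were lower and 0 higher on day 1, and 3, 0 and 2 were higher on days 4, 5 and 11.

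From day 1 to day 3, members higher were 4 without dim genes, 4 with loess, 1 centred, 6 with weights, 1 without day 1 replicate 1, 1 at 0.01 and 0 with 6 arrays. From day 4 to day 5, members lower were 12 with loess, 4 centred, 16 with weights, 18 without the 3 arrays, 14 without day 1 replicate 1, 2 at 0.01 and 12 with 6 arrays, and 4 were higher at 0.01. From day 3 to day 11, members lower were 5, 1, 6, 6, 5, 1 and 5 in the same settings, and higher were 32 with weights, 29 without the 3 arrays, 29 without day 1 replicate 1 and 28 with 6 arrays. Large minus small was -0.076 on day 4 by structure and -0.077 with the mean of probe sets, -0.084 on day 11 by structure, and -0.036 on day 9 without the 3 arrays, which leaves 1 array there.

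Leaving out 1 replicate at a time gave 0 to 13 lower and 1 to 6 higher on day 1, 37 to 50 lower on day 3, 30 to 39 on day 4, 38 to 46 on day 5, 24 to 36 on day 7, 33 to 39 on day 9 and 30 to 33 on day 11, with 0 to 1 higher on days 5 and 7. From day 1 to 3 it gave 35 to 49 lower and 1 to 5 higher, from day 4 to 5 3 to 7 lower and 4 to 7 higher, and from day 3 to 11 1 to 2 lower. With a replicate block, 50 members were lower on day 3 and 33 on day 11, and no count moved by over 1.5 times.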
